A study of Mus musculus with 6 samples.

Results

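Imprinted genes of the growth network are genes expressed mainly from the maternal or the paternal chromosome that act on the growth of the embryo and of young tissue. The set comprised *Mest*, *Dlk1*, *Peg3*, *Cdkn1c*, *Grb10*, *Plagl1*, *Ndn*, *Sgce*, *Peg10* and *Nnat*, a list of symbols matched to the Ensembl identifiers of the RNA-seq tables. Of the 10 symbols, 9 were found among the 14548 genes, and *Dlk1* was not analysed here. The list was chosen by earlier results of the same comparison, so the fold changes of its members, and the counts of members called, are given as a description and support nothing.

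The libraries were made from C2C12, a line of mouse myoblasts (the cells that fuse into skeletal muscle fibres), labelled by cell type as myoblasts and by tissue as skeletal muscle. There were 3 libraries of the wild-type (WT) genotype and 3 of the MSTN-KO genotype, a line named C11 in which CRISPR/Cas9 cutting had destroyed *Mstn*, the gene for the muscle growth inhibitor myostatin. By the study's methods the cells were kept in DMEM with fetal bovine serum, and neither group carried a further allele or agent in the labels. The knockout was 1 cell line, so the loss of *Mstn* cannot be told apart from other traits of that line.

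In the labels the strain reads C11 for WT as well, and the genotype was used for the grouping. Nothing states that the replicates came from separate cultures, so p-values measure only the spread between these libraries, which may be technical. The values are FPKM, fragment counts divided by exon length and by library size, a level per length that can be compared between genes. *Mstn* itself was near 0 in all 6 libraries (WT 0.0211, 0 and 0.0399 FPKM; MSTN-KO 0.0269, 0.0586 and 0.0390 FPKM), and the groups were not told apart (two-sided exact permutation test, p = 0.3, smallest possible 0.1). Its RNA therefore gave no check of the labels.

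The library sums were 723705 to 764524 FPKM in WT and 856314 to 999579 FPKM in MSTN-KO, and 13151 to 13478 genes per library were above 0. The number of fragments is unknown, and depth relative to WT replicate 1 was estimated at 0.862 to 1.14. Genes of muscle differentiation separated the groups, with 22 of 23 tested (95.7%) called lower in MSTN-KO, where 8.96% of all genes tested were called lower. Of these genes, *Ckm*, *Myh1*, *Myh3*, *Mybph*, *Cav3*, *Neb* and *Casq2* reached 1 FPKM, the level needed for testing, in WT alone. A call for them could only be a lower one. The summed level of the whole list was 2201, 2206 and 1019 FPKM in WT and 399, 460 and 535 FPKM in MSTN-KO. WT replicate 3 thus stood between the other WT libraries and the knockout.

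An imprinted gene is as a rule governed by a DNA methylation mark set in the egg or the sperm. The mark sets which parental chromosome expresses the gene, or a whole neighbourhood of genes. Paternally expressed genes such as *Mest*, *Peg3*, *Plagl1*, *Ndn*, *Sgce*, *Peg10* and *Nnat* stand beside maternally expressed ones such as *Cdkn1c* and, in most tissues, *Grb10*. Many of them are high in embryonic tissue, including muscle, and decline after birth. FPKM values do not separate the parental alleles.

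In the GENCODE M21 annotation of GRCm38, the 9 members present lie in 8 imprinted domains. *Sgce* (chromosome 6, 4674350 to 4747207, minus strand) and *Peg10* (4747306 to 4760517, plus strand) start 99 bases apart and point away from each other. *Mest* (chromosome 6, 30723547 to 30748465, plus strand) shares 912 bases with *Copg2* on the opposite strand. *Nnat* (chromosome 2, 157560078 to 157562522, plus strand) lies inside *Blcap* on the opposite strand. Whether the authors' counting used the strand is not given in the sources used here, so reads from such overlapping genes cannot be told apart.

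The microRNA gene *Mir335* (chromosome 6, 30741299 to 30741396, plus strand) lies within an intron of *Mest*. Its mature products are shown because a transcript of *Mest* that starts upstream of it can carry it. The mature sequences from RefSeq (GRCm38.p6) are written 5′ to 3′ with the seed, bases 2 to 8, in capitals.
mmu-miR-335-5p: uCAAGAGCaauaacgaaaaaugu
mmu-miR-335-3p: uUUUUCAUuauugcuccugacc
The 5p product occupies 30741314 to 30741336 and the 3p product 30741354 to 30741375 of chromosome 6. Their seeds differ. The level of either was not analysed here.

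Promoters of 7 of the 10 symbols were found in the RefSeq table of GRCm38.p6, and the 250 bases before the start were searched, taking the start richest in CG where a gene has several. Printed here are *Mest*, the member with the largest measured fall, *Ndn*, the member listed at 0 in the knockout, and *Grb10*, the member richest in CG. Capitals mark CG dinucleotides, the sites at which DNA methylation is set.
Mest, chr6:30737800-30738049, plus strand: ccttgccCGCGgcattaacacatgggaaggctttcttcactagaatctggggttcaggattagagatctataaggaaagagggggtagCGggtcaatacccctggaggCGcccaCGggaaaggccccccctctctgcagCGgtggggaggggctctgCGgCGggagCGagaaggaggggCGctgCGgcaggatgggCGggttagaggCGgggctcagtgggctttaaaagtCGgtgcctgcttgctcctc
Ndn, chr7:62348027-62348276, plus strand: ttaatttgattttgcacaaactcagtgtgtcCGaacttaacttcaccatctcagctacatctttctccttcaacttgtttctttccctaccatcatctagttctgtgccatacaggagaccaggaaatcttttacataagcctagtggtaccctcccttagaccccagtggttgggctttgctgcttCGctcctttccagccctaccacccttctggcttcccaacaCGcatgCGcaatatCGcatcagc
Grb10, chr11:12037421-12037670, minus strand: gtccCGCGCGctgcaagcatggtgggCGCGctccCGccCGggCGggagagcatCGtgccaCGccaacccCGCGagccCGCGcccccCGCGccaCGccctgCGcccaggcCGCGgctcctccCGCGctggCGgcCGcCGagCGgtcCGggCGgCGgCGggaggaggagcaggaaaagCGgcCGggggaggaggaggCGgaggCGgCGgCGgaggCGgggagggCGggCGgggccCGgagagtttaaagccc
The window held 40 CG in *Grb10*, 19 in *Plagl1*, 14 in *Mest*, 12 in *Nnat*, 8 each in *Dlk1* and *Peg3* and 5 in *Ndn*, beside a median of 6 over 32851 promoters. The *Grb10* window was richer in CG than 98.7% of all promoters and the *Ndn* window than 44.4%. All promoters in the table entered these shares, whereas each member was taken at its start richest in CG, which raises the members' rank.

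The motif TGCCGC, bound when methylated by the imprint-keeping zinc finger protein ZFP57, was searched on both strands. It occurred in *Mest* with 2 matches and in *Plagl1* with 1, and 8.68% of all promoters held it. The motif holds a CG, so taking each member at its start richest in CG favours a match. The E-box CANNTG, the motif read by the myogenic factors, was present once in *Mest* and at 2 places in *Plagl1*, while 66.2% of all promoters held it. These matches describe the printed letters and not measured binding.

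Within the comparison of MSTN-KO with WT, the clearest differences among the members were falls of *Mest*, *Cdkn1c* and *Ndn* and a rise of *Peg10*. *Sgce* was slightly lower without overlap between the groups, *Peg3* overlapped, and *Grb10*, *Plagl1* and *Nnat* were under 1 FPKM in every library. Because fewer cells of a type and less RNA per cell cannot be told apart in bulk RNA, each difference is one of the average level. Fold changes are differences of log2(FPKM + 1), which shrinks the differences of genes with little RNA.

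*Mest* (ENSMUSG00000051855) encodes a membrane enzyme of the alpha/beta hydrolase fold and is named for its transcript in mesoderm. The WT libraries held 21.8, 15.5 and 16.3 FPKM (replicates 1 to 3), and those of MSTN-KO held 0.883, 2.32 and 1.86 FPKM. Every knockout library was far under every WT library, and the mean level was 17.9 ± 3.45 FPKM (SD, n = 3) in WT and 1.69 ± 0.735 FPKM (SD, n = 3) in MSTN-KO, 9.44% of WT. The log2 fold change was -2.84 (standard error 0.21) and ranged from -3.01 to -2.60 when single libraries were left out. Within its library *Mest* moved from percentile 68.1 to 73.4 of all genes in WT to percentile 29.0 to 36.8 in MSTN-KO.

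*Ndn* (ENSMUSG00000033585; chromosome 7, 62346569 to 62350262, plus strand) encodes necdin, a MAGE family protein that restrains E2F1 and is known in myoblasts as a factor of differentiation. Its level was 3.73, 3.64 and 3.41 FPKM in the WT libraries. It was listed at 0 FPKM in all 3 MSTN-KO libraries, so no fold is given. A listed 0 can be a failed estimate. Values of 0 in 1 library with over 5 FPKM in every other occurred 2 times over all genes and libraries. *Ndn*, at 0 in 3 libraries and under 5 FPKM in WT, lies outside that count, which therefore gives no rate for it. In all, 9 genes were listed at 0 in every MSTN-KO library with at least 1 FPKM in every WT library, and 0 genes the other way round.

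*Cdkn1c* (ENSMUSG00000037664; chromosome 7, 143458339 to 143461050, minus strand) encodes p57, an inhibitor of cyclin-dependent kinases that accompanies cell cycle exit in differentiating myoblasts. Its level was 2.15, 1.50 and 2.11 FPKM in WT and 0.653, 0.590 and 0.581 FPKM in MSTN-KO. All knockout values lay under all WT values, with means of 1.92 ± 0.364 and 0.608 ± 0.0390 FPKM (SD, n = 3 each). The knockout mean was 31.6% of WT and the log2 fold change -0.85 (standard error 0.17). Like *Ndn*, *Cdkn1c* passed the filter of 1 FPKM only through the WT libraries.

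*Peg10* (ENSMUSG00000092035), a gene derived from a retrotransposon whose protein retains gag and pol features, was the member with a rise. Its level was 12.3, 12.0 and 13.5 FPKM in WT and 26.9, 21.7 and 20.4 FPKM in MSTN-KO. The lowest knockout library was above the highest WT library, and the mean rose from 12.6 ± 0.821 to 23.0 ± 3.41 FPKM (SD, n = 3 each), 182% of WT. The log2 fold change was 0.81 (standard error 0.14), from 0.70 to 0.89 with single libraries left out.

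*Sgce* (ENSMUSG00000004631), the divergent neighbour of *Peg10*, encodes epsilon-sarcoglycan, a membrane glycoprotein related to the sarcoglycans of the dystrophin complex. It was measured at 15.9, 19.2 and 17.9 FPKM in WT and 13.3, 12.4 and 13.9 FPKM in MSTN-KO. The groups did not overlap, with means of 17.7 ± 1.69 and 13.2 ± 0.752 FPKM (SD, n = 3 each) and a log2 fold change of -0.40 (standard error 0.13). *Peg10* and *Sgce* thus had differences of opposite sign although their starts are 99 bases apart, and both kept their sign under every scaling tried.

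*Peg3* (ENSMUSG00000002265; chromosome 7, 6703892 to 6730431, minus strand) encodes a zinc finger protein of stem and progenitor cells, muscle ones among them. Its level was 21.8, 16.5 and 13.9 FPKM in WT and 15.0, 16.3 and 8.16 FPKM in MSTN-KO. The groups overlapped, since 2 knockout libraries were above WT replicate 3, and the lowest value came from MSTN-KO replicate 3. The log2 fold change of -0.41 (standard error 0.23) became -0.12 without that library.

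The other 3 members present were too low for the filter of at least 1 FPKM in at least 1 library. *Nnat*, which encodes neuronatin, a small proteolipid of the endoplasmic reticulum, was at 0.747, 0.403 and 0.134 FPKM in WT and at 0.207, 0.125 and 0.118 FPKM in MSTN-KO. *Plagl1*, the gene of a zinc finger transcription factor that regulates other imprinted genes, was at 0.0356, 0.142 and 0.203 FPKM in WT and at 0, 0.0685 and 0 FPKM in MSTN-KO. The values of *Grb10*, an adaptor that restrains insulin and IGF1 receptor signalling, reached at most 0.0861 FPKM in any library. All 3 genes overlapped between the groups, and *Nnat* lay just under the filter while *Cdkn1c* lay just inside it.

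**Figure D1:**
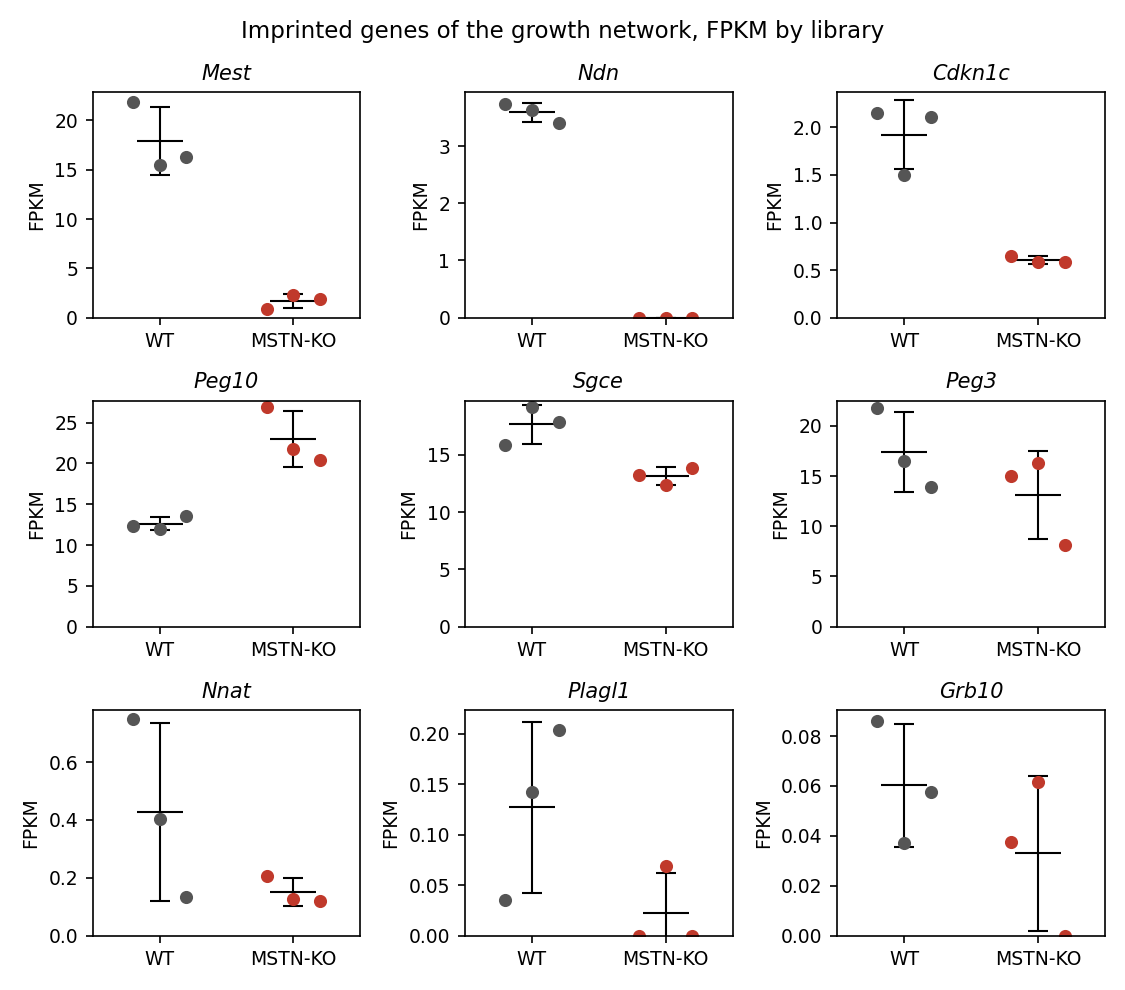
FPKM (linear axes) of the 9 members present, with 1 point per library, 3 WT and 3 MSTN-KO, and the mean ± SD as bars, cut at 0. *Mest*, *Cdkn1c* and *Ndn* had lower points in every MSTN-KO library, *Ndn* at 0, whereas *Peg10* had higher ones.

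Of the 9 members present, 6 passed the filter. By the limma adjusted p over all genes, 3 were called lower (*Mest*, *Cdkn1c* and *Ndn*), where 8.96% of the 10837 genes tested were lower. 1 member, *Peg10*, was called higher, where 8.78% of all genes tested were higher. *Sgce* was called lower as well with percentile 75 scaling, with scaling to equal sums and without WT replicate 1. Without overlap between the groups, 4 members were lower (background 18.1%) and 1 higher (background 19.3%). By the rule in the study's methods, an unadjusted p under 0.05 with a log2 fold change below -1 or above 1, *Mest* and *Ndn* were lower (background 2.30%) and 0 members higher (background 1.21%). *Cdkn1c*, at -0.85, was below -1 with a pseudocount of 0.1 (-1.50) and with scaling to equal sums (-1.09). The members were chosen with this contrast known, and *Cdkn1c* and *Ndn* passed the filter through WT alone, so a lower value in MSTN-KO was fixed beforehand. Nothing is read from these counts.

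Over the 9 members the median log2 fold change was -0.40, with 8 values under 0 and 1 above it, beside a median of -0.0064 over all 14548 genes. With a pseudocount of 0.1 the members' median was -0.85. The median is the same for any value of *Ndn* below it. Without WT replicate 1 the median was -0.25. Scaling each library to the same FPKM sum moved the median of all genes tested by -0.26 and that of the members to -0.67. Under that scaling *Peg10* kept a positive log2 fold change, 0.55, and *Mest*, *Cdkn1c*, *Ndn*, *Sgce* and *Peg3* kept negative ones.

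**Figure D2:**
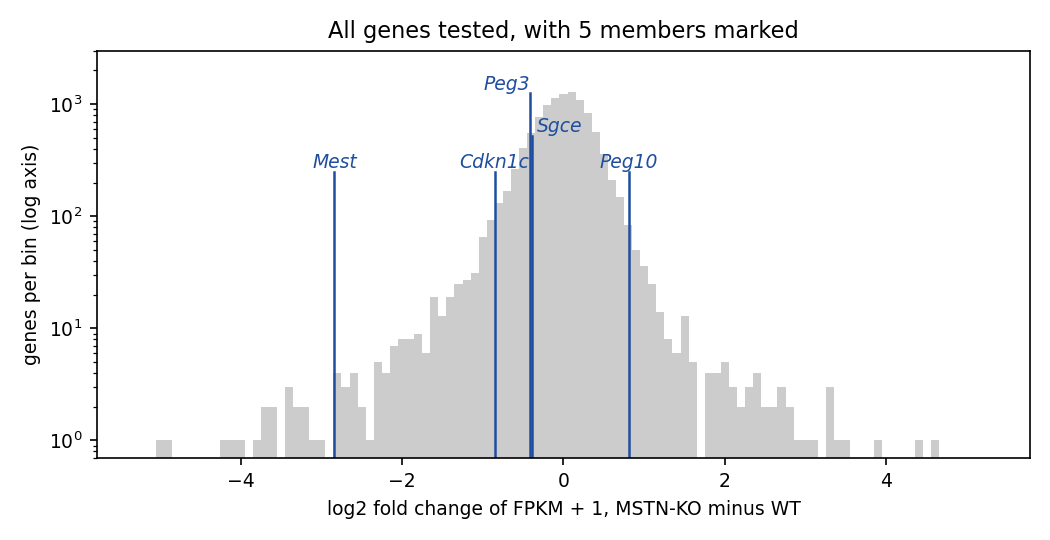
Number of genes per bin (vertical log axis) by log2 fold change of FPKM + 1, MSTN-KO minus WT (horizontal axis), for the genes tested. Vertical lines mark 5 tested members: *Mest* at -2.84 lay far in the lower tail, *Cdkn1c* at -0.85, *Peg3* at -0.41 and *Sgce* at -0.40 lay under the median, and *Peg10* at 0.81 lay above it. *Ndn* is left out because its knockout values were 0.

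The genes whose levels over the 6 libraries were most like those of 2 members were found by the root mean square difference of log2(FPKM + 1), each gene taken relative to its own WT mean. Nearest to *Mest*, the largest fall, were *Chchd10* (0.208), *Klhl22* (0.270) and *Trim44* (0.283). *Trim44* fell from a mean of 6.21 to 0.0672 FPKM and *Chchd10* from 10.4 to 0.790 FPKM. Nearest to *Peg10*, the rise, were *Khk* (0.0584), *Ripk2* (0.0755) and *Ppm1l* (0.0884). The measure is set mainly by the difference between the groups, since all genes share the same 6 libraries.

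Next, other imprinted genes were examined, a list of 62 symbols with 38 present and 28 tested. Of these, 7 (25.0%) were called lower in MSTN-KO and 1 (3.57%) higher, beside 8.96% and 8.78% of all genes tested. The median log2 fold change was -0.22, and whether each gene is imprinted in these cells was not measured. *Igf2r*, *Tspan32*, *Slc22a18* and *Ddc* passed the filter through WT alone, so a call for them could only be a lower one. Several of the lower genes are neighbours of members, and the largest fall was on another chromosome.

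*Igf2r*, the receptor that clears IGF2 and sorts lysosomal enzymes, stood at 12.1, 9.40 and 7.59 FPKM in WT and at 0.161, 0.218 and 0.181 FPKM in MSTN-KO. The knockout mean was 1.92% of WT (log2 fold change -3.15, standard error 0.18, limma adjusted p = 1.29e-07). It was a larger fall than that of *Mest* on this scale, and the adjusted p lay between 3.32e-12 and 0.000147 in the other settings. Its ligand gene *Igf2*, the main fetal growth factor of the network, was at 7.44, 8.29 and 3.44 FPKM in WT and 3.63, 4.32 and 5.14 FPKM in MSTN-KO. Those groups overlapped (log2 fold change -0.40, limma adjusted p = 0.268), and without WT replicate 3 the adjusted p was 0.0184.

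In the *Grb10* domain on chromosome 11, both neighbours were lower although *Grb10* itself was near 0. *Cobl*, an actin nucleator, fell from 16.0, 11.6 and 5.79 FPKM to 2.46, 3.10 and 3.79 FPKM (log2 fold change -1.47, standard error 0.27, limma adjusted p = 0.00257). *Ddc*, the decarboxylase of dopamine and serotonin synthesis, went from a mean of 0.913 to 0.130 FPKM (log2 fold change -0.73, adjusted p = 0.0224). The *Ddc* call is marginal in level, since its WT values were 0.893, 1.37 and 0.477 FPKM.

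The *Cdkn1c* domain at the end of chromosome 7 held a second clear fall. *Tspan32*, a tetraspanin, was at 3.54, 2.21 and 2.03 FPKM in WT and at 0.349, 0.647 and 0.156 FPKM in MSTN-KO (log2 fold change -1.37, standard error 0.20, limma adjusted p = 0.000648). Its neighbour *Cd81*, another tetraspanin gene, had means of 446 and 443 FPKM, a log2 fold change of -0.0087. That sign turned without MSTN-KO replicate 1 (0.076) and without WT replicate 1 (0.068). *Phlda2*, a placental growth inhibitor, was above 0 in WT replicate 3 alone, at 0.195 FPKM. *Slc22a18* was at 1.13, 0.565 and 0.358 FPKM in WT and at 0.0554, 0.237 and 0.197 FPKM in MSTN-KO. It was lower without overlap but not called (log2 fold change -0.51, limma adjusted p = 0.0951).

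Beside *Sgce*, *Casd1*, a sialic acid O-acetyltransferase, had 3.63, 3.76 and 3.37 FPKM in WT and 2.10, 2.53 and 1.27 FPKM in MSTN-KO (log2 fold change -0.65, standard error 0.18, limma adjusted p = 0.0266). On the other side of *Peg10*, *Ppp1r9a* was at most 0.0127 FPKM in any library. *Peg10* was thus the member of this domain with a rise, between genes with lower values or almost no RNA.

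*Copg2*, the coatomer subunit gene that overlaps *Mest*, was at 16.3, 16.5 and 17.4 FPKM in WT and 15.6, 15.2 and 10.4 FPKM in MSTN-KO. Its log2 fold change was -0.29 (limma adjusted p = 0.229), beside -2.84 for *Mest*. *Blcap*, which contains *Nnat*, had 24.9 ± 2.72 FPKM in WT and 28.7 ± 1.89 FPKM in MSTN-KO (SD, n = 3 each). Its log2 fold change was 0.20 (limma adjusted p = 0.318) and became -0.079 after scaling to equal sums. The host or overlapping gene therefore did not pass the test at either locus.

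At the *Peg3* locus, *Zim1*, a zinc finger gene on the other side, had 3.54, 3.18 and 1.77 FPKM in WT and 1.86, 2.02 and 0.720 FPKM in MSTN-KO. Its log2 fold change was -0.61 (limma adjusted p = 0.0995), and with the replicate number as a block the adjusted p was 0.0312. Without MSTN-KO replicate 2 it was 0.0430 and without WT replicate 3 it was 0.0388. *Usp29*, whose start is 147 bases from that of *Peg3*, was at most 0.0359 FPKM.

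The *Ndn* domain on chromosome 7 is the one that corresponds to the human Prader-Willi region. *Peg12* there was under 1 FPKM and not tested, at 0.544, 0.473 and 0.740 FPKM in WT and 0.0526, 0.196 and 0.190 FPKM in MSTN-KO. *Mkrn3*, a RING finger gene, was at most 0.129 FPKM. *Snurf*, from the imprinting centre transcript, was at 5.55, 4.88 and 4.63 FPKM in WT and 5.93, 8.14 and 8.04 FPKM in MSTN-KO (log2 fold change 0.47, limma adjusted p = 0.0599, and 0.0424 without MSTN-KO replicate 1). *Ube3a*, a ubiquitin ligase silenced on the paternal chromosome in neurons, overlapped between the groups (log2 fold change -0.55, adjusted p = 0.188, and 0.00849 without MSTN-KO replicate 2). *Magel2*, *Snrpn*, *Meg3*, *Rian*, *H19* and *Kcnq1ot1* were not analysed here.

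**Figure D3:**
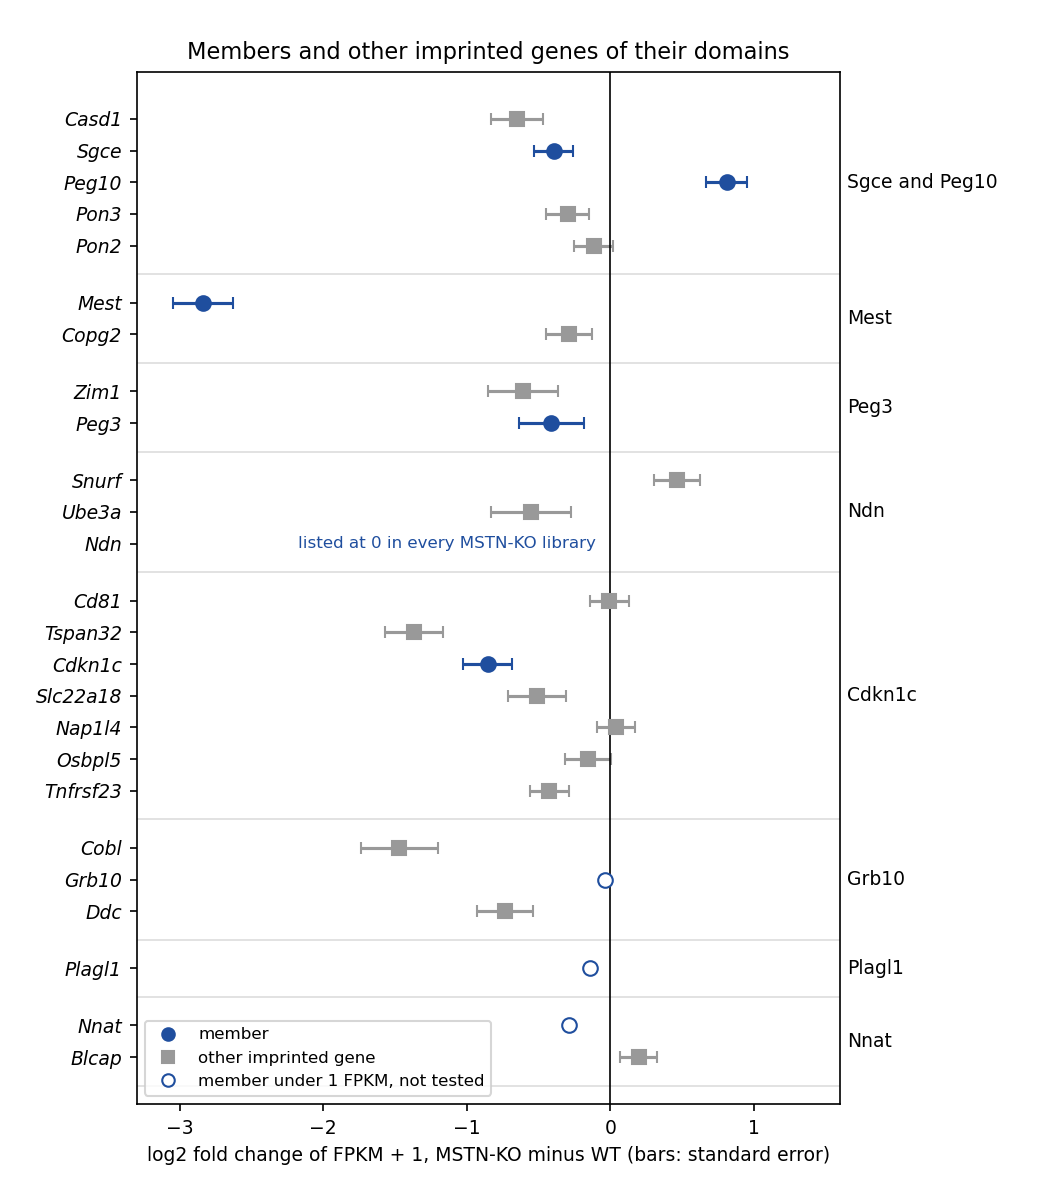
Log2 fold change of FPKM + 1, MSTN-KO minus WT, for members (blue) and other imprinted genes (grey), grouped by domain. Bars give the standard error of the genes tested. Genes not tested are open points without bars, and *Ndn*, listed at 0 in MSTN-KO, is marked by text alone. In the *Sgce* and *Peg10* domain *Peg10* at 0.81 had a rise beside *Casd1* at -0.65, and in the *Mest* domain *Mest* at -2.84 stood apart from *Copg2* at -0.29.

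Outside the members' domains, *Gatm*, the first enzyme of creatine synthesis, fell from 57.0 ± 4.09 to 40.6 ± 4.96 FPKM (SD, n = 3 each; log2 fold change -0.48, limma adjusted p = 0.0222). *Dcn*, the matrix proteoglycan decorin, which can bind myostatin, fell from 2.37 ± 0.777 to 1.04 ± 0.518 FPKM (SD, n = 3 each; log2 fold change -0.73, limma adjusted p = 0.0454). *Trappc9*, a vesicle transport gene, rose from 15.6 ± 2.40 to 22.7 ± 3.01 FPKM (SD, n = 3 each; log2 fold change 0.52, limma adjusted p = 0.0326). *Dcn* was lost in 7 of 14 settings, with an adjusted p of 0.106 with no filter, 0.0611 with percentile 75 scaling, 0.0576 with a pseudocount of 0.1 and 0.0926 with quantile normalization. *Trappc9* was lost in 6, with 0.0698 with no filter and 0.219 with scaling to equal sums, where its log2 fold change was 0.25. *Casd1* had 0.0638 with no filter, and *Ddc* failed a filter on the mean. Without MSTN-KO replicate 3 or without WT replicate 2, 3 of the 28 genes were called in place of 8. Without the former, the adjusted p was 0.0642 for *Ddc*, 0.167 for *Dcn*, 0.0703 for *Casd1*, 0.0665 for *Gatm* and 0.113 for *Trappc9*. Without the latter, it was 0.153 for *Dcn*, 0.0957 for *Casd1*, 0.110 for *Gatm* and 0.0680 for *Trappc9*, and *Ddc* no longer passed the filter. Without WT replicate 1, *Ddc* (0.0776), *Dcn* (0.160) and *Casd1* (0.0767) were lost. Without MSTN-KO replicate 1, *Ddc* (0.0546), *Gatm* (0.106) and *Trappc9* (0.0755) were lost, and without WT replicate 3, *Gatm* (0.0614) and *Trappc9* (0.12).

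The RNA levels of imprint regulators were then compared, among them genes for DNA methyltransferases, zinc finger proteins and histone methyltransferases. Of 23 symbols, 22 were present and 18 tested, with 1 called lower and 1 higher (5.56% each), under the 8.96% and 8.78% of all genes tested. *Zfp57*, which holds methylation at imprinted regions after fertilization, was at 8.13, 14.3 and 12.2 FPKM in WT and at 2.49, 4.12 and 2.90 FPKM in MSTN-KO. The groups did not overlap (log2 fold change -1.57, standard error 0.21, limma adjusted p = 0.000212), and the adjusted p was at most 0.00849 in the other settings. *Ehmt2*, the histone methyltransferase G9a, had 57.8 ± 9.07 FPKM in WT and 78.2 ± 5.05 FPKM (SD, n = 3 each) in MSTN-KO (log2 fold change 0.44, limma adjusted p = 0.0405). That call was lost in 8 of the 14 other settings. The adjusted p was 0.0924 without MSTN-KO replicate 1, 0.119 without MSTN-KO replicate 3, 0.148 without WT replicate 2 and 0.139 without WT replicate 3. With scaling to equal sums it was 0.335, at a log2 fold change of 0.16. It was 0.0654 with no filter, 0.0640 with no trend and 0.0660 with quantile normalization. The list gave 5 calls without MSTN-KO replicate 2 and 1 call without MSTN-KO replicate 1, MSTN-KO replicate 3, WT replicate 2 or WT replicate 3.

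Relatives of the members that are not known to be imprinted were listed by family, with 13 of 15 present and 11 tested. Of these, 5 (45.5%) were called lower and 2 (18.2%) higher, beside 8.96% and 8.78% of all genes tested. 3 of the falls were in sarcoglycan genes, whose products form the membrane complex that links the muscle cytoskeleton to the matrix. *Sgcd* fell from 1.86, 2.58 and 2.31 FPKM to 0.343, 0 and 0 FPKM (limma adjusted p = 9.82e-05). It passed the filter through WT alone, and its log2 fold change depends on the pseudocount, at -1.55 with 1 and -3.83 with 0.1. *Sgca* fell from 51.8 ± 18.0 to 19.3 ± 5.33 FPKM (SD, n = 3 each; log2 fold change -1.36, limma adjusted p = 0.00154). *Sgcb* fell from 15.4 ± 0.951 to 10.3 ± 1.10 FPKM (SD, n = 3 each; log2 fold change -0.54, limma adjusted p = 0.0170, and 0.0991 without WT replicate 2). Beside these, *Sgce* had the smallest log2 fold change of the 4 sarcoglycan genes named, at -0.40.

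*Cdkn1a*, which encodes p21 and is the relative of *Cdkn1c*, fell from 279, 232 and 195 FPKM to 124, 131 and 154 FPKM (log2 fold change -0.77, standard error 0.15, limma adjusted p = 0.00364). It was thus the more abundant of the 2 inhibitors in both groups. Among the MAGE relatives of *Ndn*, *Maged2* fell from 29.9 ± 3.83 to 18.3 ± 0.437 FPKM (SD, n = 3 each; log2 fold change -0.67, limma adjusted p = 0.00452). *Maged1* rose from 177 ± 21.4 to 235 ± 16.3 FPKM (SD, n = 3 each; log2 fold change 0.42, limma adjusted p = 0.0422), a call lost in 8 of 14 settings. Its adjusted p was 0.108 without MSTN-KO replicate 1, 0.110 without MSTN-KO replicate 3, 0.114 without WT replicate 2 and 0.160 without WT replicate 3. With scaling to equal sums it was 0.369, at a log2 fold change of 0.13. It was 0.0600 with no filter, 0.0678 with no trend and 0.116 with quantile normalization. *Grb14*, the adaptor related to *Grb10*, was at 3.05, 4.14 and 3.75 FPKM in WT and at 6.04, 6.45 and 5.88 FPKM in MSTN-KO (log2 fold change 0.62, limma adjusted p = 0.0144). Scaling to equal sums left it at 0.40 with an adjusted p of 0.112.

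**Figure D4:**
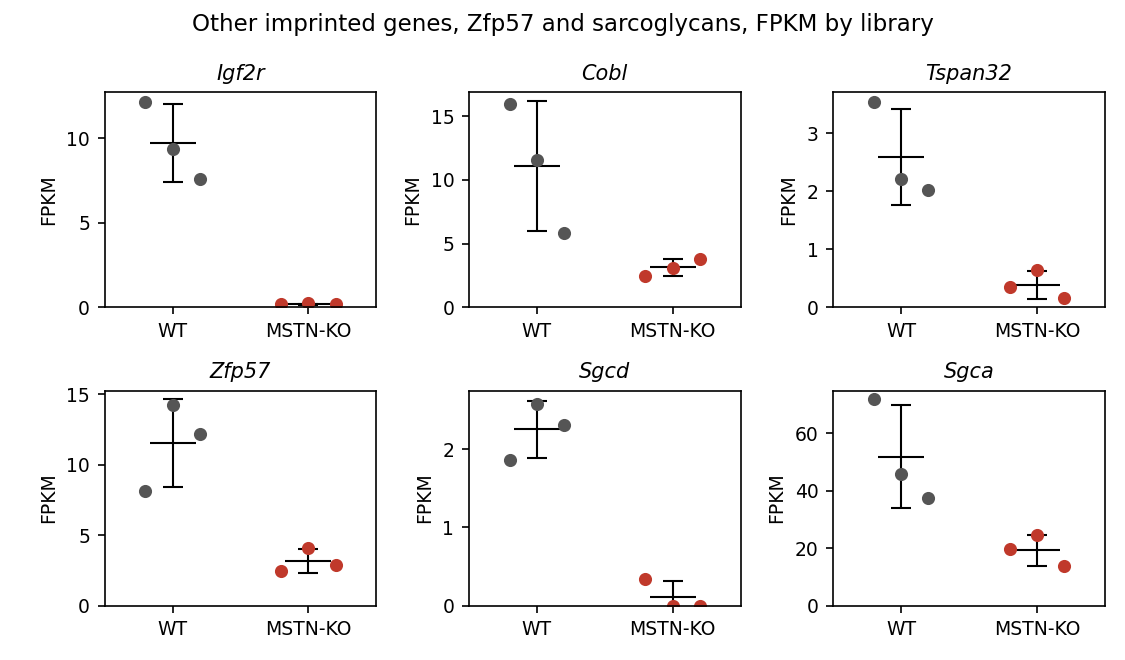
FPKM (linear axes) of *Igf2r*, *Cobl*, *Tspan32*, *Zfp57*, *Sgcd* and *Sgca*, with 1 point per library, 3 WT and 3 MSTN-KO, and the mean ± SD as bars, cut at 0. The 6 genes had lower points in MSTN-KO without overlap, and *Igf2r* was at most 0.218 FPKM in every knockout library.

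The 3 nearest protein-coding genes on each side of each member were taken from those present among the 14548 genes. Only members and the other imprinted genes of the list above were left out. This gave 48 genes with 35 tested, which lay up to 6369 kb from their member by gene start. Of these, 3 (8.57%) were called lower and 1 (2.86%) higher, shares that do not exceed those of all genes tested, and their median log2 fold change was -0.038. *Podxl*, 796 kb from *Mest*, fell by 0.81 on the log2 scale (limma adjusted p = 0.00305), *Fuca2*, 439 kb from *Plagl1*, by 1.35 (limma adjusted p = 0.000207) and *Gng11*, 670 kb from *Sgce*, by 0.88 (limma adjusted p = 0.00242). *Mrpl23*, 926 kb from *Cdkn1c*, rose by 0.62 (limma adjusted p = 0.0085). The genes of this set nearest to *Mest* on each side, *Cep41* at 70.1 kb and *Mkln1* at 675 kb, had log2 fold changes of 0.20 and -0.11. They were not called. Without MSTN-KO replicate 2 the count called was 7 in place of 4, and without WT replicate 1 it was 6.

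Several marker lists differed between the same groups. *Myog*, the factor that starts terminal differentiation, was at 175, 148 and 47.3 FPKM in WT and at 7.33, 10.2 and 11.6 FPKM in MSTN-KO (log2 fold change -3.36), and *Mymk*, a fusion protein, at 56.5, 44.1 and 13.2 FPKM and at 6.13, 4.08 and 8.05 FPKM. WT replicate 3 was the lowest WT library for both. It was also the lowest for 3 of the 9 members, *Peg3*, *Ndn* and *Nnat*. Among the other imprinted genes, regulators and relatives called lower, it was lowest for *Igf2r*, *Cobl*, *Tspan32*, *Ddc*, *Dcn*, *Casd1*, *Sgca*, *Sgcb*, *Cdkn1a* and *Maged2*. It was not for *Gatm*, *Zfp57* and *Sgcd*. *Igf2*, *Zim1* and *Slc22a18*, not called, also had their lowest WT value there. So did *Trappc9*, *Ehmt2* and *Maged1*, called higher, but not *Grb14*. In *Peg10* WT replicate 3 was instead the highest WT library, at 13.5 FPKM. For *Mest* and *Cdkn1c* WT replicate 2 was the lowest. Without WT replicate 3, the log2 fold change was -2.89 for *Mest* and -0.81 for *Cdkn1c*. The part of differentiation in the members' values was not tested.

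Of 4 adipocyte markers tested out of 10 listed, 3 were called higher in MSTN-KO, and the summed level of the list was 12.8 to 14.0 FPKM in WT and 36.6 to 48.7 FPKM in MSTN-KO. *Lpl*, a lipase, rose from 2.18 ± 0.360 to 19.3 ± 6.87 FPKM (SD, n = 3 each; limma adjusted p = 6.89e-06), *Cebpa*, a transcription factor, from 5.17 ± 0.764 to 16.0 ± 1.28 FPKM (limma adjusted p = 2.33e-05) and *Fabp4*, a lipid carrier, from 0.241 ± 0.0891 to 1.24 ± 0.459 FPKM (limma adjusted p = 0.00924). *Fabp4* passed the filter through MSTN-KO alone, so its call could only be a higher one. *Pparg*, tested but not called, had 5.72 ± 0.450 FPKM in WT and 7.40 ± 1.37 FPKM in MSTN-KO (SD, n = 3 each; limma adjusted p = 0.200). Its groups overlapped. *Plin1*, a defining gene of fat cells, was at 0 in 5 of the 6 libraries. Neuron markers, 4 of 8 present, summed to 238 to 263 FPKM in WT and 361 to 431 FPKM in MSTN-KO, with 1 of 3 tested called higher. The neuron sum was mostly *Stmn2*, the gene called, at 195 ± 8.94 FPKM in WT and 313 ± 43.8 FPKM in MSTN-KO (SD, n = 3 each). *Map2* and *Nefl* were not called. *Syp* was under 1 FPKM, not tested, and lower in MSTN-KO. Markers of endothelial and blood cells summed to 10.5 to 11.3 FPKM in WT and 30.7 to 37.9 FPKM in MSTN-KO, with 1 of 2 tested, *Hba-a1*, called higher. That sum was mostly *Hba-a1*, a haemoglobin gene, at 9.62 ± 0.620 FPKM in WT and 32.0 ± 2.98 FPKM in MSTN-KO (SD, n = 3 each). The endothelial genes *Pecam1*, *Cdh5*, *Kdr* and *Tek* were at most 0.0581 FPKM in any library. The part of these lists in the members' values in the members' values was not tested. Proliferation markers, set beside the cell cycle inhibitor *Cdkn1c*, summed to 562 to 750 FPKM in WT and 603 to 720 FPKM in MSTN-KO, with 1 of 9 called lower. Over all genes tested, 8.78% were called higher and 8.96% lower.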

How the data were processed

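RNA-seq of 6 C2C12 libraries, 3 WT and 3 MSTN-KO by the genotype in the labels, was analysed. The authors sequenced on an Illumina HiSeq system and deposited FPKM values per gene, 1 library per file, with no pooling. The submitters' processing notes name Bowtie 0.12.2 and mm8 without a role. The annotation and strand setting are not given in the sources used here. The files hold no coordinates, and symbols and positions came from GENCODE M21 (GRCm38), which matched 14445 of 14548 identifiers. Sequences came from RefSeq (GRCm38.p6).

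A gene had to reach 1 FPKM in 1 or more libraries. Testing was on log2(FPKM + 1) with limma 3.58.1 in R 4.3.3 (1 coefficient for group, eBayes with trend), with Benjamini-Hochberg adjustment over all 10837 genes. Genes were called at an adjusted p of 0.05. Depth relative to WT replicate 1 was taken from log2 ratios of genes under 0.1 FPKM. The fit was tested on simulated data. Other steps ran in Python 3.11.15 with pandas 2.3.3, numpy 2.4.6, matplotlib 3.10.9 and scipy 1.17.1.

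The members and lists were chosen with earlier results of these data known. Named genes were the members, up to 5 called genes per direction and list, fixed neighbours, called flanking genes (up to 2 per side of a member), the 3 genes most like 2 members, *Mstn*, *Myog* and *Mymk*. *Gatm*, *Sgcb*, *Snurf*, *Ube3a*, *Peg12*, *Cd81*, *Cep41*, *Mkln1*, *Lpl*, *Cebpa*, *Fabp4*, *Plin1*, *Pecam1*, *Cdh5*, *Kdr*, *Tek* and *Hba-a1* were named after their values were seen. So were *Ckm*, *Myh1*, *Myh3*, *Mybph*, *Cav3*, *Neb*, *Casq2*, *Slc22a18*, *Pparg*, *Stmn2*, *Map2*, *Nefl* and *Syp*. 1 gene of the lists is not reported here. Alternatives changed the pseudocount (0.1), the filter (none, or on the mean), the trend (none) and the scaling (quantile normalization, percentile 75, or a sum of 1000000), added the replicate number as a block, or left out each library.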

Additional observations from a re-analysis of the deposited data

How the results depend on the processing

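The median log2 fold change of the 9 members, -0.40, was -0.85 with a pseudocount of 0.1, -0.67 with scaling to a sum of 1000000, and -0.45 to -0.25 with single libraries left out. Calls over all genes numbered 1923 (952 higher, 971 lower) and 1029 to 2435 with single libraries left out, lowest without WT replicate 2 and 1206 without MSTN-KO replicate 1. Scaling to a sum of 1000000 gave 350 higher and 2367 lower. The study's rule gave 380 genes, 754 with a pseudocount of 0.1, 602 with scaling to a sum of 1000000 and 373 to 467 with single libraries left out. Of the other imprinted genes, 8 were called, and 3 to 10 with single libraries left out. Of the imprint regulators, 2 were called, 1 with no filter, no trend or quantile normalization, 4 with scaling to a sum of 1000000 and 1 to 5 with single libraries left out. Of the flanking genes, 4 were called, 10 with scaling to a sum of 1000000 and 4 to 7 with single libraries left out. *Blcap* turned to -0.079 with scaling to a sum of 1000000, and *Cd81* ranged from -0.090 to 0.076 with single libraries left out. The causes were not tested.

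Libraries of the same number did not deviate together (r across genes -0.015, -0.13 and -0.14), so the numbers were not taken as pairs. With the replicate block, 1940 genes were called. Under the filter, *Grb10*, *Plagl1* and *Nnat* were too low for a difference to be detectable, and the unknown fragment counts allow no counting error.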

Other observations

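The 9 genes listed at 0 FPKM in every MSTN-KO library with at least 1 FPKM in every WT library were *Akip1*, *Alkal1*, *Crmp1*, *Cthrc1*, *Igfbp3*, *Ndn*, *Pnmal2*, *Ripk3* and *Smim20*. *Igfbp3* encodes the main carrier protein of IGF1 and IGF2 in blood, and *Ndn* was the only imprinted gene of the lists used here among the 9. These genes were named after their values were seen.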
